A study of Homo sapiens with 4 samples.

Results

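The 10 genes described here mark blood stem and progenitor cells and the mast cell and basophil lineage: KIT, GATA2, NRIP1, FCER1A, PRG2, CD34, TAL1, LMO2, ERG and HLF. They were taken by gene symbol from the probe sets of the array, and where a gene had more than 1, its probe set with the highest mean signal was taken. All 10 had a probe set, out of 18022 genes that had one with a single symbol. A gene was compared when its signal exceeded the median of the whole table, 3.08 log2 units, in at least 1 array. This held for 8 of the 10 genes and for 13014 genes in all. CD34 and TAL1 did not pass, and their values are given without counts. The set was chosen by earlier results of these same arrays, the differences of both arrays labelled profound from control. The values of KIT, GATA2, NRIP1, FCER1A and PRG2 in that contrast therefore describe the choice and support nothing by themselves.

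The cells were MV4-11, a human cell line of monocytic acute myeloid leukaemia that carries a KMT2A-AFF1 fusion. The study asked how expression differs between depths of RUNX1 knockdown. Cells received 1 of 4 hairpin RNAs, and all of them, controls included, were then kept for 24 h with 3 µM doxycycline. The groups were RUNX1 hairpin profound 1, RUNX1 hairpin profound 2, a RUNX1 hairpin labelled moderate, and a control hairpin against luciferase. Each group is 1 whole-transcript array of 1 sample of a single line. No value below therefore has a replicate check, no p-value is given, and precision is limited by the small number of arrays. Values are log2 RMA signals as the authors deposited them, where a difference of 1 is a factor of 2.

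The genes belong to connected parts of early blood formation. KIT is the receptor tyrosine kinase for stem cell factor and is needed by stem cells, progenitors and mast cells. GATA2, TAL1, LMO2 and ERG encode transcription factors or adaptors that bind many of the same enhancers in progenitors together with RUNX1, LYL1 and FLI1. GATA2 also acts in mast cells, where KIT and the high-affinity IgE receptor, whose alpha chain is FCER1A, are lasting surface proteins. PRG2 encodes the major basic protein of eosinophil granules. CD34 is a sialomucin used to isolate progenitors, HLF a PAR bZIP factor of stem cells, and NRIP1 a corepressor of nuclear receptors.

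RefSeq promoter windows (GRCh38.p14, 250 bases before to 50 bases after an annotated start) were available for 8 of the 10 genes, 16 windows in all. The windows of KIT, GATA2 and FCER1A are shown because their signals were at least 1.5-fold lower than control in both arrays labelled profound, and that of TAL1 because it is the 1 window of the 16 with RUNX letters. Capitals mark matches on either strand to 4 motifs. The letters searched were TGTGGT for RUNX factors. For GATA factors they were AGATAA. The E-box bound by TAL1 with E proteins was searched as CAGATG. ETS factors such as ERG were searched as AGGAAG.
KIT, chr4:54657707-54658006, plus strand: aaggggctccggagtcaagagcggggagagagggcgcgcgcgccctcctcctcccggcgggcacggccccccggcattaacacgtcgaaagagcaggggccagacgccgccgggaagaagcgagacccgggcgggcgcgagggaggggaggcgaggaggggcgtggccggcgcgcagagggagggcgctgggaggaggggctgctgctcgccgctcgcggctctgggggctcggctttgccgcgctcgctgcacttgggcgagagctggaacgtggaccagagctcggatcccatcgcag
GATA2, chr3:128493152-128493451, minus strand: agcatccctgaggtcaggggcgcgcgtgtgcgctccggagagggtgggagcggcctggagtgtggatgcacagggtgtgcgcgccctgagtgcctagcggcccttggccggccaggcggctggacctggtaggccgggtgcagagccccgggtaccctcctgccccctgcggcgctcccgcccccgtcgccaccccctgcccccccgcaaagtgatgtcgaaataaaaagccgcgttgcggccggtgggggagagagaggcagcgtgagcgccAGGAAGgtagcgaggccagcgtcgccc
FCER1A, chr1:159302086-159302385, plus strand: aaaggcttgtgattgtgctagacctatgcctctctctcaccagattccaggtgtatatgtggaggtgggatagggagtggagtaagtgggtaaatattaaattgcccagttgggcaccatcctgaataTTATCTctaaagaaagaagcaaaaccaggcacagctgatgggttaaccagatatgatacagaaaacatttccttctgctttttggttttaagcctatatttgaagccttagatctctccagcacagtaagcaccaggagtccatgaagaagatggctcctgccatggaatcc
TAL1, chr1:47231666-47231965, minus strand: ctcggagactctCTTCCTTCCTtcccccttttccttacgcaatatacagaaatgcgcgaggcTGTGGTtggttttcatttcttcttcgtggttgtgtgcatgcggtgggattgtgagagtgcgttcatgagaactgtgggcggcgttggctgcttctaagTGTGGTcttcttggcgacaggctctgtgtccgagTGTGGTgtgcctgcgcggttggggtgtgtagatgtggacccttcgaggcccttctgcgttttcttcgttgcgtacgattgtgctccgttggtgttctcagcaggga

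The 4 windows differed in base composition. KIT had 74.3% G and C with 38 CpG sites, and the GATA2 window 72.3% with 29. FCER1A had 43.7% G and C and 0 CpG sites. The median over 35116 windows of the same length was 58.7% G and C. The KIT window held none of the 4 motifs. The GATA2 window held an ETS match 23 bases past the start, and its second window none. FCER1A held a GATA match 122 bases before the start. The TAL1 window held 3 RUNX matches, 188, 90 and 56 bases before the start, and a pair of overlapping ETS matches.

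Over the 16 windows, 1 held a RUNX match (6.25%, against 13.1% of all windows) and 4 held a GATA match (25.0%, against 10.3%). An E-box match stood in 2 (12.5%, against 14.7%) and an ETS match in 5 (31.2%, against 33.6%). Of the 4 GATA windows, 2 belong to ERG and overlap each other over the same letters, so 3 genes carry the 4, and the ETS letters of ERG likewise stand in both of its overlapping windows. These are letter matches in short windows and describe no binding.

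The targeted gene was read first. The 1 probe set that names RUNX1 is shared with LOC100506403, and it read 4.07 in profound 1, 4.04 in profound 2, 4.33 in moderate and 4.27 in control. The differences from control of -0.19, -0.22 and 0.06 were all within the spread of 0.23 at that level. Against moderate, profound 1 was at -0.25 and profound 2 at -0.28, where the robust SDs of those same contrasts at this level were 0.28 and 0.27. Moderate did not read below control, so the arrays are named by their labels only. In their description fields, profound 1 is called a RUNX2 and profound 2 a RUNX3 knockdown. RUNX2 read 6.17 in profound 1, 6.33 in profound 2, 6.16 in moderate and 6.23 in control, so it was at -0.06 from control in profound 1. RUNX3 read 7.75, 7.74, 8.28 and 8.17 in the same order, differences from control of -0.42 in profound 1 and -0.43 in profound 2. The robust SDs of those contrasts at this level were 0.22 and 0.13, so RUNX3 lay beyond them in both. CBFB, the partner of RUNX proteins, was at -0.0047 and 0.19. The word spread stands for the robust SD of moderate minus control among genes of like mean level, in 6 classes. Where the robust SD of another contrast is used, it is named as such. The spread holds noise and real difference together. It was 0.25 in the dimmest class and 0.11 in the brightest. The robust SD of profound 1 minus control was wider, 0.27 and 0.22 in those classes, and that of profound 2 minus control was 0.26 and 0.13. The line's identity markers were present: 12 of 13 measured monocytic leukaemia markers exceeded the table median in every group, CD14 being the exception. Array medians lay between 3.07 and 3.09.

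KIT read 4.30 in profound 1, 4.42 in profound 2, 4.59 in moderate and 5.07 in control. All 3 arrays of RUNX1 hairpins lay below the control array, and both labelled profound lay lowest. Against control the differences were -0.77 and -0.65 in profound 1 and profound 2 (1.70-fold and 1.57-fold lower) and -0.47 in moderate (1.39-fold lower). The robust SDs of these 3 contrasts at this level were 0.28, 0.22 and 0.20. In bulk RNA, fewer cells with a transcript and less of it per cell cannot be told apart. Of the 13014 compared genes, 16 (0.123%), KIT among them, were at least as low as KIT in both arrays labelled profound. Since KIT was chosen by these same differences, nothing is read from this share.

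FCER1A read 2.76 in profound 1, 3.30 in profound 2, 3.59 in moderate and 3.90 in control. The order of the arrays was that of KIT, with profound 1 alone under the table median. Its differences from control were -1.14, -0.60 and -0.31, of which the first was 2.20-fold and was the largest difference among the 10 genes. The profound 1 value lies in the range where RMA compresses differences, and with signals under the table median set to that median it was -0.82.

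GATA2 read 2.54 in profound 1, 2.27 in profound 2, 3.15 in moderate and 3.15 in control. Unlike for KIT and FCER1A, moderate and control lay only 0.01 apart. Its differences from control were -0.60 and -0.88 (1.52-fold and 1.84-fold lower) in profound 1 and profound 2. It exceeded the table median by a narrow margin in 2 arrays and lay under it in the other two. With dim signals set to the table median, both differences shrank to -0.07, so the size of the GATA2 difference rests on signals near the floor of the array.

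NRIP1 read 7.999 in profound 1, 7.93 in profound 2, 8.25 in moderate and 8.49 in control. Its signals lay in the brightest of the 6 level classes, far above the floor, and control was highest. The differences from control were -0.49, -0.57 and -0.24, short of 1.5-fold. The robust SDs of these 3 contrasts at this level were 0.22, 0.13 and 0.11. NRIP1 was thus just outside the 1.5-fold line in profound 2 (1.48-fold), whereas FCER1A in profound 2 (1.51-fold) and GATA2 in profound 1 (1.52-fold) were just inside it.

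**Figure D1:**
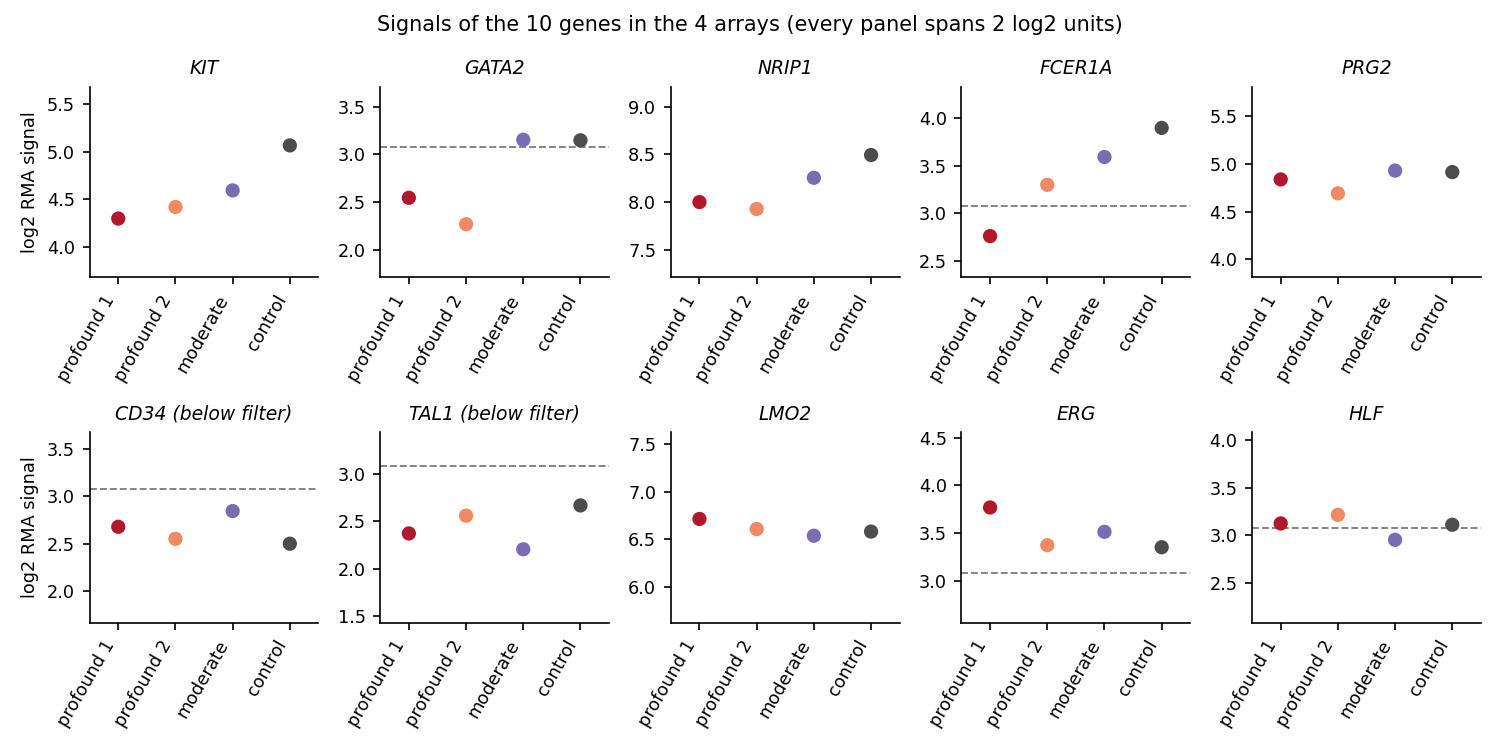
Log2 RMA signal (vertical axis, each panel spanning 2 log2 units) of the 10 genes in the arrays labelled profound 1, profound 2, moderate and control, 1 point per array, with the table median of 3.08 dashed where it falls in the panel. KIT, NRIP1 and FCER1A were highest in control and lowest in both arrays labelled profound, GATA2 was level in moderate and control, and CD34 and TAL1 lay under the dashed line in every array.

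PRG2 read 4.84 in profound 1, 4.69 in profound 2, 4.93 in moderate and 4.91 in control on the probe set with the highest mean. The differences from control were -0.08, -0.22 and 0.02, where the robust SDs of those contrasts at this level were 0.28, 0.22 and 0.20. A second PRG2 probe set read 4.65, 4.09, 4.48 and 4.83 in the same order, with differences of -0.17, -0.74 and -0.35. Both probe sets put both arrays labelled profound below control, but they disagree on profound 2, which is 1.17-fold lower by the first and past 1.5-fold by the second. A further probe set is shared with SLC43A3 and read 9.85, 9.95, 10.18 and 10.11, and it names no single gene.

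The other transcription factor genes among the 10, TAL1, LMO2, ERG and HLF, and CD34 stayed short of 1.5-fold from control in every array. LMO2, a bridging adaptor between TAL1 and GATA factors, read 6.71 in profound 1, 6.61 in profound 2, 6.54 in moderate and 6.58 in control. Its range over the 4 arrays was 0.18, and 75.1% of genes of like level had at least that range. ERG, an ETS factor, read 3.77, 3.37, 3.51 and 3.35 in the same order. Profound 1 was its highest array, 0.42 above control, while profound 2 was 0.02 above it.

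HLF read 3.13 in profound 1, 3.22 in profound 2, 2.95 in moderate and 3.11 in control, a range of 0.26 around the table median. TAL1 read 2.37, 2.56, 2.20 and 2.66 in the same order. CD34 read 2.68, 2.55, 2.84 and 2.50. Both lay under the table median in all 4 arrays. Their largest differences from control, -0.46 for TAL1 and 0.34 for CD34, were in moderate, not in the arrays labelled profound, and concern signals at the floor.

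At 1.5-fold, 3 of the 8 compared members were lower than control in both arrays labelled profound, KIT, GATA2 and FCER1A. GATA2 entered the comparison only through moderate and control, where it is high, and its call is lost with dim signals set to the table median or with the filter on the mean level. The same rule called 44 of all 13014 genes (0.338%), and since these contrasts chose the members nothing is read from the difference. None of the 8 was higher in both, against 0.346% of all genes, or in profound 1 (2.75%) or profound 2 (1.27%) alone. Each array labelled profound called the same 3 members lower on its own, where the shares of all genes were 4.06% in profound 1 and 1.14% in profound 2. In moderate none was lower or higher, against 0.499% and 0.93% of all genes. All of these comparisons share 1 control array. The median difference of the 8 members was -0.29 in profound 1, -0.39 in profound 2 and -0.10 in moderate, against -0.0019, -0.0017 and 0.0064 over all compared genes. KIT, GATA2, NRIP1, FCER1A and PRG2 were chosen by the contrasts of both arrays labelled profound with this control. Nothing is therefore read from the members' medians.

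**Figure D2:**
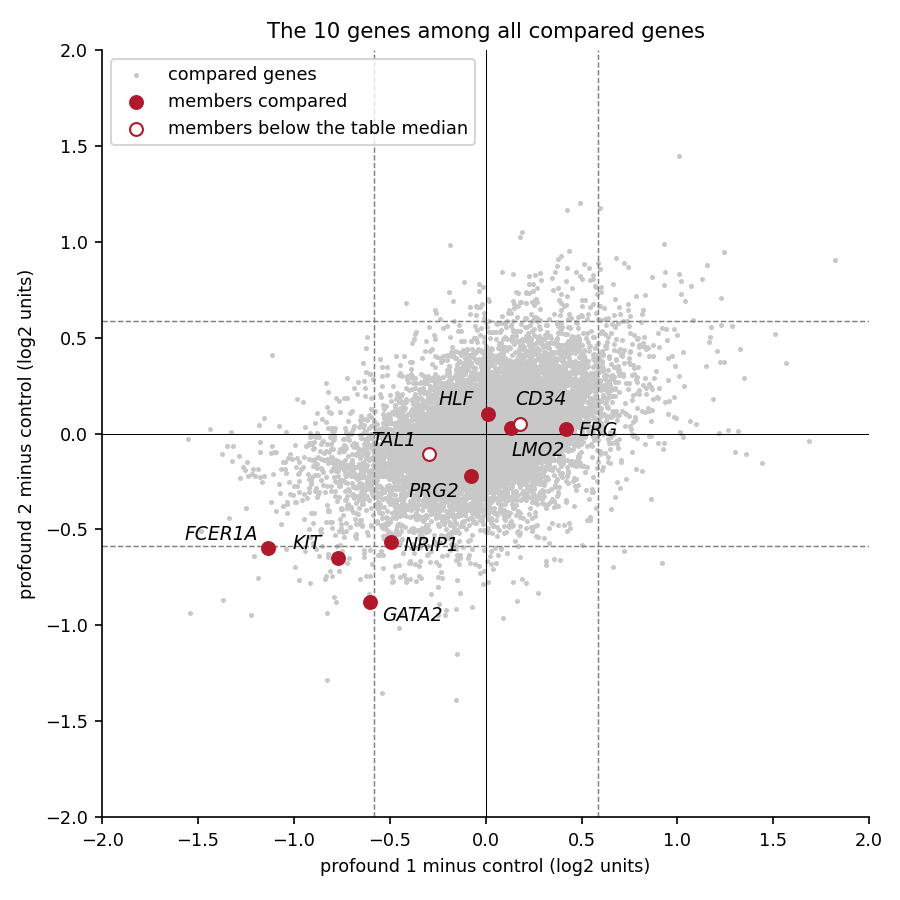
Difference from control in log2 units in profound 1 (horizontal) and profound 2 (vertical) for 13014 compared genes (grey), the 8 compared members (filled) and CD34 and TAL1 (open), with dashed lines at 1.5-fold. KIT, GATA2 and FCER1A lie beyond both lower lines, NRIP1 lies just short of them, and the other 6 lie nearer the centre.

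Differences from the moderate array leave the control array out but keep the signals of the arrays labelled profound. Those signals helped to choose KIT, GATA2, NRIP1 and FCER1A, so nothing is read from the shares beside them here. Against moderate, GATA2 was at -0.61 in profound 1 and -0.89 in profound 2. FCER1A was at -0.83 and -0.29, and only profound 1 passed 1.5-fold, as 3.51% of all genes did there and 1.7% in profound 2. KIT was at -0.30 and -0.17 and NRIP1 at -0.26 and -0.33. GATA2 passed 1.5-fold in both, as 0.507% of all genes did, but nothing is read from this, since it passed the filter only through moderate and control. With dim signals set to the table median it was at -0.08 in both. None of the 8 was higher in both, against 0.33% of all genes. For KIT, moderate itself was at -0.47 from control. The RUNX1 probe set read 0.06 higher in moderate than in control, within the spread of 0.23 at its level. Whether the order of the arrays in KIT follows RUNX1 was not tested.

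The order with both arrays labelled profound lowest, moderate above them and control highest held for KIT, NRIP1 and FCER1A. It held for 1287 of all 13014 compared genes (9.89%). Since this order contains the contrast that chose these members, nothing is read from setting them beside that share. The arrays labelled profound differed little from each other in KIT (-0.12, profound 1 minus profound 2) and NRIP1 (0.07). On the probe sets used, they differed most in FCER1A (-0.54) and ERG (0.40), and 0 of the 8 members differed 1.5-fold between them, against 3.04% of all genes lower and 2.27% higher in profound 1. The second PRG2 probe set differed by 0.57, more than either and just short of 1.5-fold.

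**Figure D3:**
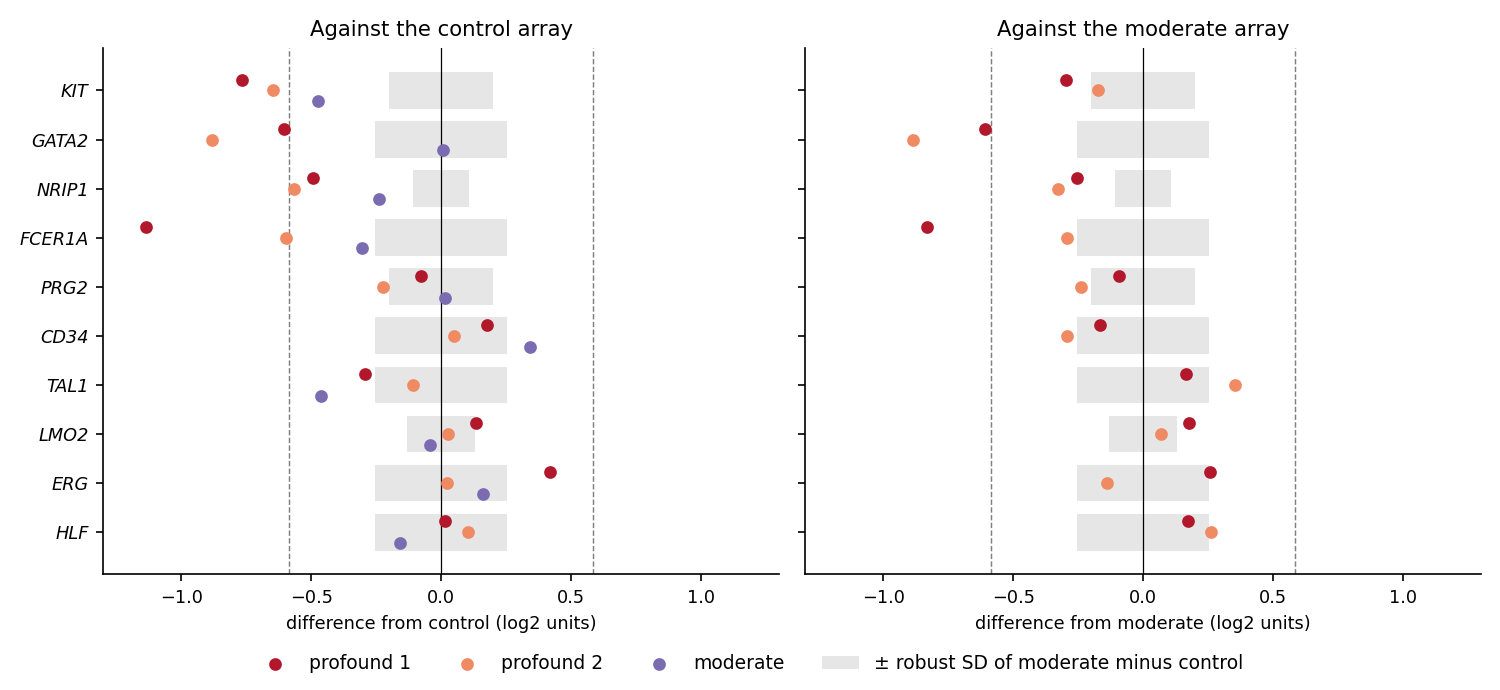
Differences in log2 units of the 10 genes from the control array (left, for profound 1, profound 2 and moderate) and from the moderate array (right, for profound 1 and profound 2), with grey bars of plus and minus the robust SD of moderate minus control at each gene's level and dashed lines at 1.5-fold. On the right GATA2 lies beyond the lower line in both arrays, at signals under the table median, and FCER1A in profound 1.

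Over the 4 arrays, FCER1A had a range of 1.14 log2 units, GATA2 of 0.89, KIT of 0.77 and NRIP1 of 0.57. Among genes of like level, 0.784% had a range at least that of FCER1A, 3.27% at least that of GATA2, 5.90% at least that of KIT and 9.27% at least that of NRIP1. For the other 6 these shares lay between 35.3% (TAL1) and 75.3% (HLF). For KIT, FCER1A and NRIP1 the range was the difference of an array labelled profound from control, the contrast that chose them. GATA2 was chosen by that contrast too, and its range ran from moderate to an array labelled profound that lay under the table median. Nothing is therefore read from setting the shares of these members beside those of the other 6.

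Genes around the members were then examined by lists of related function, none of which includes a member. Among stem and progenitor transcription factors, 0 of 19 compared genes passed 1.5-fold in both arrays labelled profound against control, and the medians were -0.03 and -0.07. The homeobox gene HHEX came nearest, at 4.80 in profound 1, 4.88 in profound 2, 5.08 in moderate and 5.41 in control. The immediate early gene EGR1 read 6.35, 6.51, 6.75 and 7.03 in the same order. Both were lower at 1.5-fold in profound 1 alone, with differences of -0.61 and -0.53 for HHEX and -0.68 and -0.52 for EGR1. MEIS1, a KMT2A fusion target, was at -0.33 and -0.25. Against moderate, 1 gene of this list, SOX4, was lower at 1.5-fold in both arrays (-0.70 in each). In the lists below, FCER1G and ITGA2B were also lower there, and FCER2 and CD68 higher. The shares of all genes were 0.507% lower and 0.33% higher.

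Of the further factors that share enhancers with GATA2, TAL1, LMO2 and ERG, FLI1 was at 0.02 and 0.11 and LYL1, the closest relative of TAL1, at 0.58 and 0.15. Among the partners of the TAL1, LMO2 and GATA2 complex, 0 of 19 compared genes passed in both arrays, with medians of -0.05 and -0.0077. The bridging factor gene LDB1 was at 0.04 and -0.12. The cofactor gene SSBP3 was at -0.32 and -0.23. The E protein gene TCF4 read 6.76 in profound 1, 6.78 in profound 2, 7.30 in moderate and 7.15 in control, differences of -0.39 and -0.38. The corepressor gene CBFA2T3 was lower at 1.5-fold in profound 1 (-0.62) and at -0.13 in profound 2.

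Surface genes of stem and progenitor cells gave 0 of 12 in both arrays, with medians of -0.01 and -0.09. FLT3, a receptor kinase of the same family as KIT that is mutated in this line, read 9.46, 9.28, 9.43 and 9.43 in profound 1, profound 2, moderate and control. Its differences from control were 0.03, -0.15 and -0.01. CSF1R, another receptor of that family, was at -0.11 and 0.16. PROCR, the endothelial protein C receptor gene, was at -0.46 and -0.21, and the chemokine receptor gene CXCR4 at 0.24 and 0.20. The ligand gene KITLG read 1.86, 1.85, 1.54 and 1.82 and was under the table median throughout.

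Genes acting below KIT gave 0 of 19 in both arrays, with medians of 0.07 and 0.03. The largest shared difference was that of PIK3R1, a regulatory subunit of PI3-kinase, at 0.56 and 0.35. The kinase gene LYN was at 0.33 and 0.29. STAT5A was higher at 1.5-fold in profound 1 (0.75) and at 0.04 in profound 2.

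The other mast cell and basophil genes were mostly dim. Of 17 measured, 7 exceeded the table median in at least 1 array and 0 of these passed 1.5-fold in both arrays labelled profound. Their medians were -0.02 and -0.01. The mast cell protease gene CPA3 read 2.11 in profound 1, 2.01 in profound 2, 1.96 in moderate and 2.11 in control, and the histidine decarboxylase gene HDC lay between 2.32 and 2.47. The transcription factor gene MITF, a regulator of mast cells, lay between 2.02 and 2.32. Of the genes above the median, CTSG, a protease of neutrophils and monocytes as well as mast cells, was at -0.56 and -0.14. The tryptase gene TPSD1 went the other way, at 4.35 in profound 1, 3.99 in profound 2, 4.13 in moderate and 3.69 in control, differences of 0.66, 0.30 and 0.44. It passed 1.5-fold in profound 1 alone. The mast cell receptor gene MRGPRX2 was at 0.38 and 0.33, with signals near the floor. It exceeded the table median only in the arrays labelled profound, where it was high, so nothing is read from these differences. Eosinophil granule genes gave 0 of 4, with medians of -0.28 and 0.03, and PRG3, the nearest relative of PRG2, read 2.93, 3.14, 3.07 and 2.87.

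The IgE receptor genes differed in direction. FCER1G, the gamma chain that FCER1A needs at the surface and that Fc receptors of monocytes share, read 7.50 in profound 1, 7.49 in profound 2, 8.12 in moderate and 7.56 in control. It stood out in moderate, and its differences from control in the arrays labelled profound were -0.06 and -0.07. FCER2, the low-affinity IgE receptor CD23 and a C-type lectin unrelated to FCER1A, read 7.01, 7.06, 5.53 and 6.08 in the same order. It was higher in both arrays labelled profound by 0.93 and 0.99. The adaptor gene LAT was higher by 1.08 and 0.59, and these were the 2 of 14 compared genes of IgE receptor signalling that passed 1.5-fold in both, with list medians of 0.11 and -0.03.

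Nuclear receptor corepressors and partners of NRIP1 gave 0 of 9, with medians of 0.05 and 0.0048. The corepressor gene LCOR was at 0.26 and 0.21, and GPS2, a subunit of a corepressor complex, at -0.39 and -0.07. Relatives of the members by family gave 0 of 13, with medians of 0.02 and 0.0090. Of the GATA factors, GATA1 was at -0.25 and -0.05 and GATA3 at -0.29 and -0.33. Of the PAR bZIP relatives of HLF, DBP was at 0.54 and 0.01 and TEF at -0.09 and -0.11. The related bZIP repressor gene NFIL3 read 5.70 in profound 1, 5.998 in profound 2, 6.37 in moderate and 6.29 in control, differences of -0.58 and -0.29 in the arrays labelled profound. LMO4, a relative of LMO2, was at 0.20 and 0.36.

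**Figure D4:**
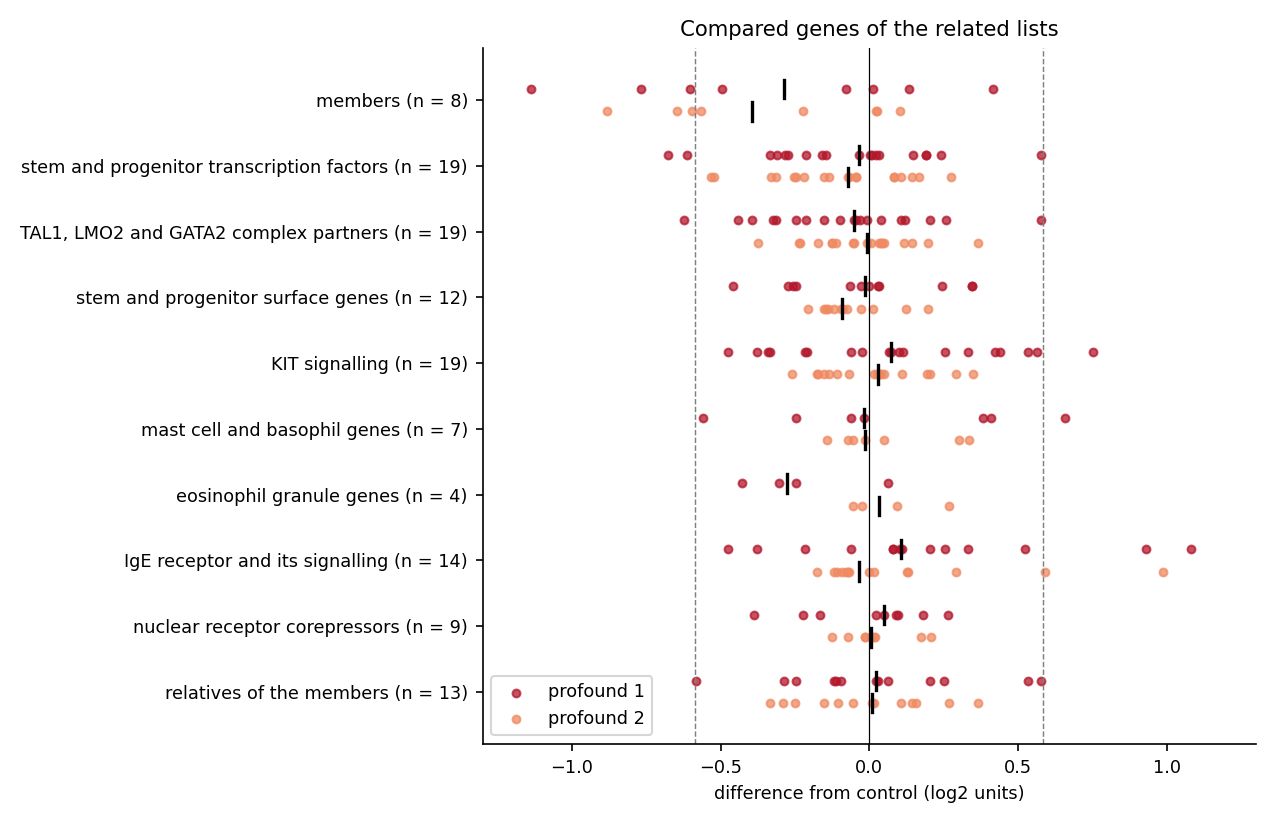
Difference from control in log2 units (horizontal) of each compared gene of the members and of 9 related lists (rows, with the number of genes) in profound 1 and profound 2, with black ticks at the medians and dashed lines at 1.5-fold. The list medians lie close to 0 except the eosinophil list of 4 genes in profound 1 (-0.28), and FCER2 and LAT are the list genes beyond 1.5-fold in both arrays. The members' row holds genes chosen by these same differences, so nothing is read from setting it beside the lists.

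Because CD34, TAL1, LMO2 and ERG are also endothelial genes and GATA2 and TAL1 also erythroid and megakaryocytic ones, markers of those cells were read. Endothelial markers gave 0 of 7 compared genes past 1.5-fold in both arrays, erythroid markers 0 of 5 and megakaryocyte markers 0 of 7. The medians in profound 1 and profound 2 were -0.18 and 0.0057, 0.08 and 0.12, and -0.09 and 0.17, in the order of these lists. The endothelial gene EGFL7 was at 0.42 and 0.37, and PLVAP at -0.13 and -0.29. The megakaryocyte genes NFE2 and ITGA2B were at -0.34 and -0.58 and at -0.37 and -0.32, whereas GP6 was at 0.19 and 0.17. Of 13 measured endothelial markers, 5 exceeded the table median in profound 1, 7 in profound 2, 6 in moderate and 6 in control, and VWF, KDR and TEK lay under it in all. Lymphoid markers gave 0 of 6 and fibroblast and epithelial markers 0 of 4. The monocytic markers gave 1 of 12, CD68, a macrophage glycoprotein gene, at 0.70 and 0.63. The medians of that list were 0.09 and -0.03, so CD68 does not stand for the list. MEIS1 was at -0.33 and -0.25 and CSF1R at -0.11 and 0.16. Any link of CD68 to the members' differences was not tested.

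The genes whose 3 differences from control were nearest to those of KIT, by Euclidean distance among genes above the table median in all 4 arrays, were GDAP1 (distance 0.015), OXER1 (0.063), SPCS2 (0.14), TMEM115 (0.16) and LAPTM4B (0.16). GDAP1, a mitochondrial outer membrane protein gene, read 4.69 in profound 1, 4.80 in profound 2, 4.97 in moderate and 5.45 in control. OXER1, an eicosanoid receptor gene, read 4.26, 4.44, 4.58 and 5.03. Likeness over 3 differences that share 1 control array describes the pattern and nothing more. No member was among these 5.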

How the data were processed

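Whole-transcript arrays of 4 MV4-11 samples, 1 per hairpin, were used. The authors deposited log2 signals of 53617 probe sets, for which the submitters' processing notes name RMA, Transcriptome Analysis Console 1.0 and Affymetrix Expression Console 1.3.1. As RMA quantile-normalises arrays, a shift common to most genes cannot be seen and dim differences are compressed. Settings and build: not given in the sources used here. Groups follow the genotype labels, and 0 columns of values were left unused.

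Of the probe sets, 23871 had 1 symbol in the platform annotation, 1842 several and 27904 none listed. Names were updated through RefSeq (GRCh38.p14). Small RNA, predicted, antisense, open-reading-frame and receptor segment symbols were left out. With 1 array per group there is no test: genes were counted at 1.5-fold, in both arrays labelled profound where so stated. The 10 members, the 16 lists and the naming rule (members, RUNX genes and CBFB, up to 3 genes a list, 5 genes most like KIT) were chosen with earlier results of these data known. Further list genes, among them FLT3, MEIS1, FLI1, LYL1, CTSG, CPA3, FCER1G and STAT5A, were named after their values were seen. Alternatives were cyclic loess (limma 3.58.1), median centring, other filters on dim genes, 2-fold, and the mean of a gene's probe sets. The counting rule was run on simulated data with changes of 1 or 2 log2 units and 1 noise level for all genes. That noise came from moderate minus control (robust SD 0.17), narrower than profound 1 minus control (0.27). Most member differences were smaller than these changes, so the simulation does not check their calls. Python 3.11.15 and pandas 2.3.3 were used.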

Additional observations from a re-analysis of the deposited data

How the results depend on the processing

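The counts of members at 1.5-fold, 10 in all, were recomputed under 7 settings each, and 63 of 70 values stayed within 1.5 times. Most of these 63 belong to counts that were 0 and stayed 0 in every setting. A fall from 3 to 2 also lies within 1.5 times, so this share says little about single calls. At 2-fold the members lower than control numbered 1 in profound 1 (FCER1A), 0 in profound 2 and 0 in both, in place of 3 each. With the filter on the mean level, and with dim signals set to the table median, each of these 3 counts was 2 (KIT and FCER1A), so the call of GATA2 against control was lost in both settings. The 1 member lower than moderate in both arrays labelled profound, GATA2, was lost (0) after median centring, with the filter on the mean level, with dim signals set to the table median, and at 2-fold, the first by a narrow margin, and under the filter and the floor because GATA2 is dim. Of 200 recomputed differences of single members, 188 moved by less than the spread at their level, 12 moved by more and 0 of those past 1.5-fold turned sign. Of the 12, 11 came from setting dim signals to the table median (GATA2, FCER1A, CD34 and TAL1) and 1 from averaging both PRG2 probe sets, which put PRG2 at -0.48 in profound 2 against control. Many of the 188 could not move. Averaging probe sets changes PRG2 alone, and the floor cannot change KIT, NRIP1, PRG2, LMO2 or ERG, which exceeded the table median in every array. Background correction could not be varied, since scanner files were not used here, and no replicate could be left out. No paired analysis was possible because each group has 1 array.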
